A study of Caenorhabditis elegans with 6 samples.

Results

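The transcripts described here are those of 8 innexin genes of *C. elegans*: *unc-7*, *unc-9*, *inx-3*, *inx-7*, *inx-10*, *inx-12*, *inx-13* and *inx-19*. They were picked by name, without a rule on measured values but with earlier results of these data known. They come from the 19793 genes of the neural RNA-seq table, which lists 25 innexin genes in all. The table holds 6 libraries of poly(A) RNA from isolated neural cells of L1 animals, the first larval stage, 3 from *adr-2 (-)* animals (strain BB78) and 3 from *adr-2 (-)*;ADR-1 dsRBD1 animals (strain HAH57). Both strains lack *adr-2* through the *ok735* allele, and both carry RFP and GFP reporters driven by the pan-neuronal *rab-3* promoter together with a genomic rescue of *unc-119*. ADR-2 is the RNA editing enzyme of the worm and ADR-1 is its relative that binds double-stranded RNA without editing it. In the dsRBD1 strain, lysines of the first double-stranded RNA-binding domain of ADR-1 are replaced, so the comparison asks which neural transcripts differ when ADR-1 cannot bind RNA in animals without ADR-2. The strain list gives a FLAG tag on ADR-1 for the dsRBD1 strain alone, and the tag and the substitutions cannot be told apart in these data.

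Gap junctions are channels that join the cytoplasm of neighbouring cells and let ions and small molecules pass. In invertebrates they are built from innexins, membrane proteins that cross the membrane several times and assemble into half-channels, which dock with half-channels of the adjoining cell. In the nematode nervous system they form the electrical synapses, which work beside the chemical ones. UNC-7 and UNC-9 couple command interneurons to motor neurons, and worms that lack either protein move in an uncoordinated way.

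The values are normalised read counts, that is, the number of reads on a gene divided by 1 size factor per library. Reads on genes ranged from 5686686 to 18382009 per library. *adr-2 (-)* replicate 3 stood apart from the rest and had the fewest reads. Of its reads, 55.4% fell on the 8 ribosomal RNA genes, against 13.5% to 22.3% in the other libraries. Of the genes with a mean of at least 50 in the other 5 libraries, 13.9% had no read in it. In that library 1 read is worth 3.25 normalised counts, against 0.602 to 0.930 in the others. The next most affected was dsRBD1 replicate 1, where the share of such genes without a read was 5.20%, against 0.437% to 0.945% in the remaining libraries. It had reads on 11971 genes, against 10532 in *adr-2 (-)* replicate 3 and 14778 to 15887 in the remaining libraries. Markers of neurons were present throughout, with all 9 on the list detected in every library and a median level of 1811 normalised counts per kb of exon. The preparations also held transcripts of other tissues: the median marker stood at 8052 per kb for muscle (8 genes) and at 4681 per kb for intestine (6 genes), with every one of these genes detected in every library. One muscle marker, *unc-54*, shares its 3′ UTR with the GFP reporter. The median was 361 per kb for the excretory canal cell, 35.0 for glia and 4.76 for epidermis, and 5 of the 8 epidermal markers (*dpy-7*, *dpy-4*, *bli-1*, *rol-6* and *cdh-10*) were at 0 in at least 1 library. The other 3 epidermal markers were detected in every library, with medians of 481 per kb for *sqt-3*, 322 for *elt-3* and 270.1 for *lin-26*, above the neuronal markers *unc-10* (222) and *rgef-1* (146). The *sqt-3* level varied widely, from 129 per kb in dsRBD1 replicate 2 to 7875 in dsRBD1 replicate 3. These are bulk samples, in which fewer cells of a type and less RNA per cell cannot be told apart.

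All 8 innexin transcripts were detected, and none was called as different between the genotypes by any test that was run. A gene was called where its p-value, adjusted over all genes by the method of Benjamini and Hochberg, was under 0.05 and its log2 fold change was beyond 0.5 in either direction. With limma this held for 0 of the 8, with a smallest adjusted p-value of 0.741, and for 0 of the 13705 genes tested (0%). Before adjustment, limma put 0 of the 8 and 872 of all genes (6.36%) under 0.05. Applied to reads instead, the quasi-likelihood test of edgeR called 0 of the 8 and 0 of all genes (0%), and put 0 of the 8 and 898 genes (6.55%) under 0.05 before adjustment. DESeq2 called 0 of the 8 among 254 of 13265 genes (1.91%), and 0 of the 8 among 112 of 13528 genes (0.828%) without *adr-2 (-)* replicate 3. Fold changes are on the log2(value + 1) scale, dsRBD1 mutant over *adr-2 (-)*. Of the 8 log2 fold changes, 3 were above 0 and 5 below, with a median of -0.07, and the median over all genes tested was 0.09.

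**Figure D1:**
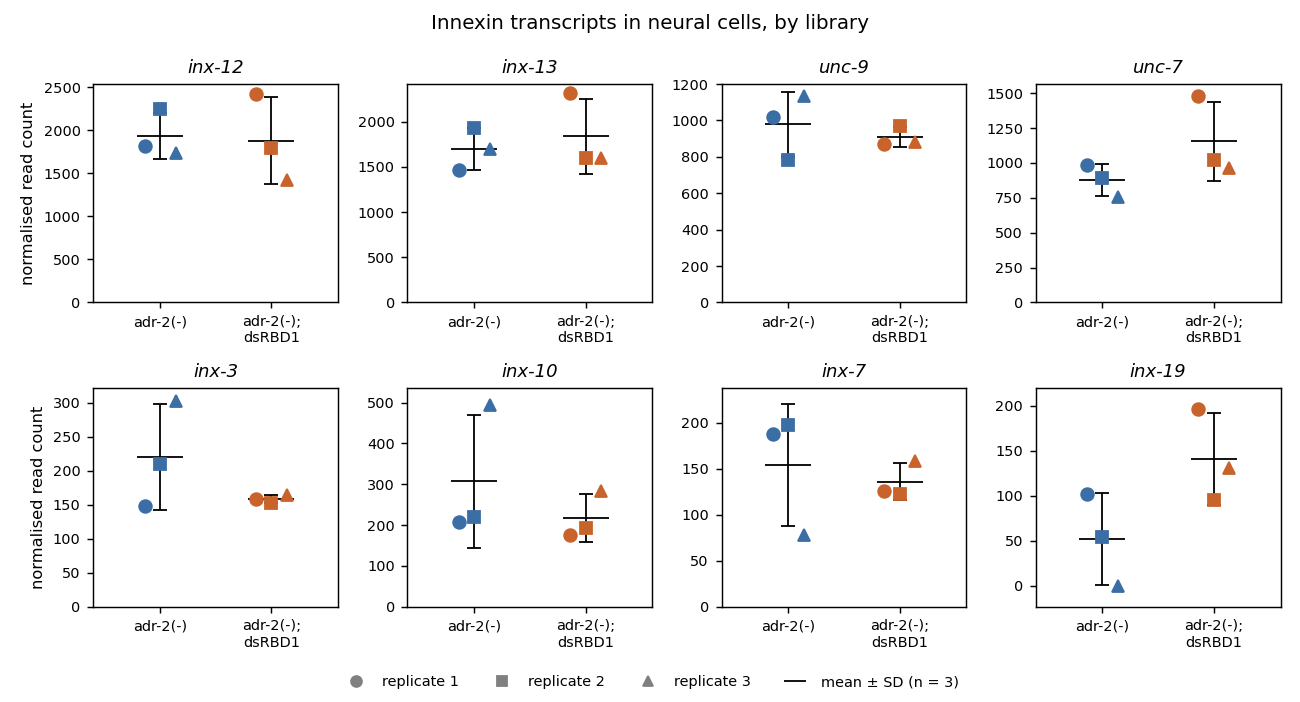
Normalised read counts of the 8 innexin genes in each of the 6 libraries (points, shape by replicate number), with the mean and SD of each genotype (n = 3); each panel has its own linear axis. In every panel the points of the genotypes overlap, and *inx-19* is at 0 in *adr-2 (-)* replicate 3.

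*unc-7* and *unc-9* encode the innexins of the locomotor circuit, and UNC-9 also couples body wall muscle cells. Both genes lie on chromosome X of the WBcel235 assembly. *unc-7* (WBGene00006747) spans 15120846 to 15147740 on the minus strand with 11 annotated transcripts, and *unc-9* (WBGene00006749) spans 13201770 to 13216729 on the plus strand with 3. The exons of *unc-7* overlap those of *R07D5.5* and *R07D5.7* on the other strand over 170 bases, and those of *unc-9* overlap no other gene. Library preparation was stranded, but the strand setting of the read counting was not given in the sources used here.

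The *unc-7* values were 983, 893 and 758 in the *adr-2 (-)* libraries (replicates 1, 2 and 3) and 1482, 1024 and 963 in the dsRBD1 mutant libraries. Most of the dsRBD1 mutant values lay above the *adr-2 (-)* ones, but the lowest of them fell just under *adr-2 (-)* replicate 1, so the groups overlapped. The means were 878 ± 113 and 1157 ± 283 (SD, n = 3 each). The *unc-7* log2 fold change was 0.38 (SE 0.26, 95% interval -0.19 to 0.95), with an adjusted p-value of 0.741 from limma, 0.865 from edgeR and 0.851 from DESeq2. It stayed above 0 under all 16 alternative settings, between 0.19 without dsRBD1 replicate 1, the highest library, and 0.50 without dsRBD1 replicate 3.

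The *unc-9* values were 1016, 783 and 1135 in *adr-2 (-)* cells and 871, 969.6 and 881 in dsRBD1 mutant cells. The 3 dsRBD1 mutant libraries lay close together, inside the range of the *adr-2 (-)* libraries. The means were 978 ± 179 and 907 ± 54.3 (SD, n = 3 each), and *unc-9* had the smallest spread of the 8 genes over the 6 libraries, with a coefficient of variation of 13.2%. Its log2 fold change was -0.09 (SE 0.25, 95% interval -0.64 to 0.45; limma, adjusted p = 0.924). The interval of *unc-9* leaves room for changes of either sign, so equal levels are not shown.

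The ratio of *unc-7* to *unc-9* reads does not depend on the scaling of a library. It was 0.967, 1.14 and 0.668 in *adr-2 (-)* cells and 1.70, 1.06 and 1.09 in dsRBD1 mutant cells. The low ratio came from *adr-2 (-)* replicate 3, the high one from dsRBD1 replicate 1, and the remaining libraries overlapped. Together *unc-7* and *unc-9* took 25.7% to 33.8% of the reads on the 8 genes.

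*inx-12* and *inx-13* encode innexins that are needed in the excretory system, where loss of either gene stops larvae early with a rod-like, fluid-filled body. They were the 2 most abundant innexin transcripts of the neural cell preparations per length of exon. The genes are neighbours on chromosome I, both on the minus strand: *inx-13* (WBGene00002135) spans 3748523 to 3753958 and *inx-12* (WBGene00002134) 3755488 to 3759039, which leaves 1529 bases between them. Neither overlaps the exons of another gene.

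The *inx-12* values were 1813, 2241 and 1740.2 in *adr-2 (-)* cells and 2415, 1797 and 1421 in dsRBD1 mutant cells. The dsRBD1 mutant libraries included both the highest and the lowest value. The means were 1932 ± 271 and 1878 ± 502 (SD, n = 3 each). The log2 fold change was -0.07 (SE 0.25, 95% interval -0.60 to 0.47; limma, adjusted p = 0.950).

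The *inx-13* values were 1461, 1931 and 1695 in *adr-2 (-)* cells and 2313, 1597 and 1597 in dsRBD1 mutant cells. Again dsRBD1 replicate 1 was the highest library, and the other dsRBD1 mutant libraries lay among the *adr-2 (-)* ones. The means were 1695 ± 235 and 1835 ± 414 (SD, n = 3 each). The log2 fold change was 0.10 (SE 0.24, 95% interval -0.41 to 0.62; limma, adjusted p = 0.908).

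The read ratio of *inx-12* to *inx-13* kept to a narrow range, with 1.24, 1.16 and 1.03 in *adr-2 (-)* cells and 1.04, 1.13 and 0.890 in dsRBD1 mutant cells. The pair took 53.9% to 63.9% of the reads on the 8 genes in every library, including the shallow one. Summed markers of the excretory canal cell ranged from 10221 to 11732 normalised counts in *adr-2 (-)* cells and from 10838 to 13814 in dsRBD1 mutant cells, with 6 of 6 markers in the table and *ceh-6* at 0 in *adr-2 (-)* replicate 3. Most of each sum came from *vha-5* (4168 to 6516 over the libraries) and *vha-11* (4808 to 6302). The rest were low and uneven, with *exc-4* at 4.65 to 281, *exc-9* at 84.6 to 485, *aqp-8* at 69.0 to 403 and *ceh-6* at 0 to 156. The part of these markers in the *inx-12* and *inx-13* levels was not tested.

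*inx-3* encodes an innexin found in many tissues, the embryo and the pharynx among them. The gene (WBGene00002125) lies on chromosome X at 5996156 to 5998243 on the plus strand. Its values were 149, 209 and 302 in *adr-2 (-)* cells and 158, 152 and 165 in dsRBD1 mutant cells. The dsRBD1 mutant libraries were tightly grouped, and the 302 in *adr-2 (-)* replicate 3 rested on 93 reads, fewer than any other library gave for this gene. The means were 220.1 ± 77.5 and 158 ± 6.17 (SD, n = 3 each). The log2 fold change was -0.41 (SE 0.53, 95% interval -1.57 to 0.75; limma, adjusted p = 0.821). For *inx-3* it was -0.16 without *adr-2 (-)* replicate 3 and -0.67 without *adr-2 (-)* replicate 1.

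*inx-10* (WBGene00002132, chromosome V, 9204661 to 9207477, minus strand) showed the same high library. Its values were 206, 221 and 494 in *adr-2 (-)* cells and 176, 192 and 284 in dsRBD1 mutant cells. The highest, in *adr-2 (-)* replicate 3, came from 152 reads, and the other *adr-2 (-)* libraries lay within the dsRBD1 mutant range. The means were 307 ± 162 and 217 ± 58.5 (SD, n = 3 each). The log2 fold change was -0.41 (SE 0.50, 95% interval -1.49 to 0.67; limma, adjusted p = 0.806). It was -0.01 without *adr-2 (-)* replicate 3 and -0.64 without *adr-2 (-)* replicate 1. The exons of *inx-10* overlap those of *asp-2* on the other strand over 74 bases.

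*inx-7* (WBGene00002129, chromosome IV, 5943981 to 5946638, minus strand) went the other way in that library. Its values were 188, 197 and 78.1 in *adr-2 (-)* cells and 126, 123 and 159 in dsRBD1 mutant cells. The low value in *adr-2 (-)* replicate 3 stood on 24 reads, against 136 to 269 in the other libraries. The means were 155 ± 66.4 and 136 ± 19.9 (SD, n = 3 each). The log2 fold change was -0.08 (SE 0.66, 95% interval -1.51 to 1.36; limma, adjusted p = 0.980). Without *adr-2 (-)* replicate 3, the groups of *inx-7* no longer overlapped and its log2 fold change was -0.51, which did not pass the test (limma, adjusted p = 0.816).

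With all 6 libraries, the groups lay wholly apart for 0 of the 8 genes and for 1880 of the 13705 genes tested (13.7%), with dsRBD1 higher for 6.8% and lower for 6.92%. Without *adr-2 (-)* replicate 3 they lay apart for 22.7% of all genes, and among the 8 for *inx-7* alone, on the lower side. No innexin of the 8 lay apart with dsRBD1 higher in those 5 libraries, against 9.83% of all genes.

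*inx-19*, also named *nsy-5*, encodes the innexin of a transient network in the embryo through which the left and right AWC olfactory neurons take on different fates. The gene (WBGene00002141) lies on chromosome I at 2451898 to 2464618 on the minus strand and overlaps the exons of no other gene. Its values were 102, 53.6 and 0 in *adr-2 (-)* cells and 196, 94.5 and 131 in dsRBD1 mutant cells, from 113, 73 and 0 and from 211, 157 and 183 reads. The dsRBD1 mutant libraries were mostly higher, but dsRBD1 replicate 2 lay below *adr-2 (-)* replicate 1, so the groups overlapped. The means were 51.8 ± 50.9 and 141 ± 51.5 (SD, n = 3 each).

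The log2 fold change of *inx-19* was 2.93, the farthest from 0 among the 8 genes and the least precise (SE 1.70, 95% interval -0.77 to 6.63; limma, adjusted p = 0.741). Most of its size came from the 0 in *adr-2 (-)* replicate 3. A count of 0 there allows up to 3 reads, or 9.76 normalised counts, and the values of *adr-2 (-)* replicates 1 and 2 would correspond to 31.3 and 16.5 reads in that library. Without it, the log2 fold change of *inx-19* was 0.85 (limma, adjusted p = 0.816). On the recovered reads of all 6 libraries it was 1.41 with edgeR (adjusted p = 0.946) and 1.42 with DESeq2 (adjusted p = 0.879). The value stayed above 0 under all 15 settings that could test the gene, with adjusted p-values from 0.488 to 0.997.

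**Figure D2:**
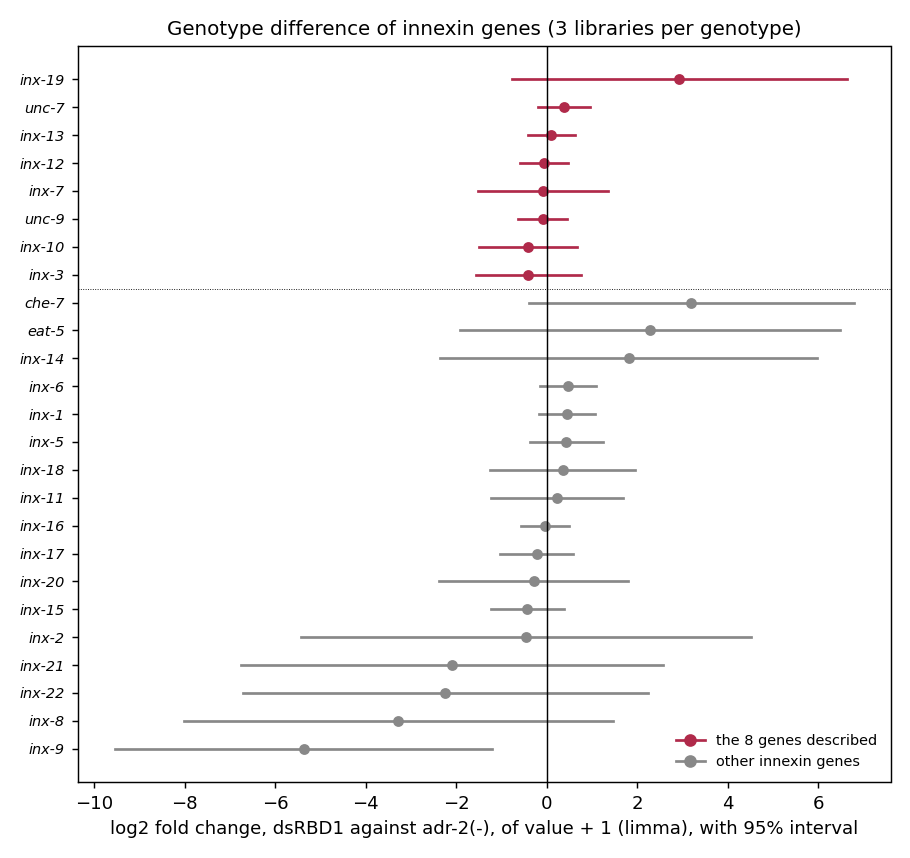
Log2 fold change of value + 1, dsRBD1 mutant over *adr-2 (-)*, for the 8 innexin genes described (red) and the other 17 (grey), with the 95% interval from limma (3 libraries per genotype). All 8 red intervals cross 0; those of *unc-7*, *unc-9*, *inx-12* and *inx-13* are narrow, and that of *inx-19* runs from -0.77 to 6.63.

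**Figure D3:**
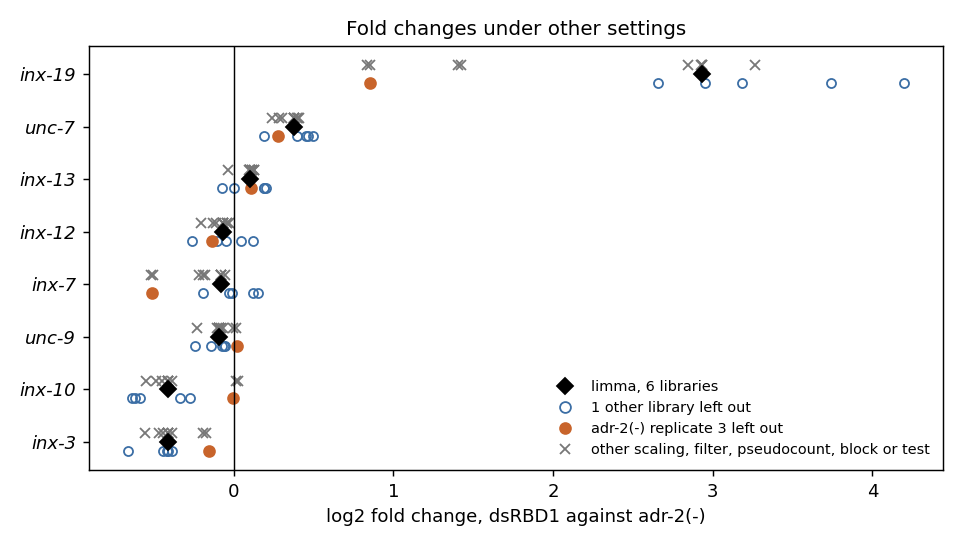
Log2 fold change of each of the 8 genes in the fit of all 6 libraries (black), with 1 library left out (circles) and under other scalings, filters, pseudocounts and tests (crosses). Leaving out *adr-2 (-)* replicate 3 (filled orange) takes *inx-19* from 2.93 to 0.85, *inx-10* from -0.41 to -0.01 and *inx-7* from -0.08 to -0.51.

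The shallow library thus gave extreme values in both directions: *adr-2 (-)* replicate 3 was the highest library for 3 of the 8 genes (*unc-9*, *inx-3* and *inx-10*) and the lowest for 3 (*unc-7*, *inx-7* and *inx-19*). dsRBD1 replicate 1 was the highest for 4 (*unc-7*, *inx-12*, *inx-13* and *inx-19*). The summed value of the 8 genes was 5918, 6530 and 6203 in *adr-2 (-)* cells and 7738, 5950 and 5601 in dsRBD1 mutant cells, again overlapping, with dsRBD1 replicate 1 the highest.

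Levels were compared between genes only after division by the exon length of the annotation. By the median over the 6 libraries, the order was *inx-12* with 1299 normalised counts per kb of exon, *inx-13* with 1144, *unc-9* with 423, *unc-7* with 264, *inx-3* with 98.8, *inx-10* with 93.4, *inx-7* with 76.3 and *inx-19* with 61.0. The highest median was 21.3 times the lowest. Neighbours in this order were compared library by library. *inx-13* was above *unc-9* in 6 of 6 libraries, by a median ratio of 2.71 (2.19 to 4.04), and their ranges did not overlap. *unc-7* was above *inx-3* in 6 of 6, by a median ratio of 2.67 (1.11 to 4.15), again with no overlap. The ranges of *unc-7* and *inx-10* did overlap: in *adr-2 (-)* replicate 3 *inx-10* was at 216 per kb and *unc-7* at 205. The other neighbours did not differ beyond their spread. *inx-12* exceeded *inx-13* in 5 of 6 libraries, and *unc-9* exceeded *unc-7* in 5 of 6. *inx-3* exceeded *inx-10* in 4 of 6, *inx-10* exceeded *inx-7* in 4 of 6, and *inx-7* exceeded *inx-19* in 5 of 6. Reads were counted over whole genes, so for *unc-7*, with 11 transcripts and 3692 bases of exon, a per-kb level understates transcripts that use few of these exons.

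**Figure D4:**
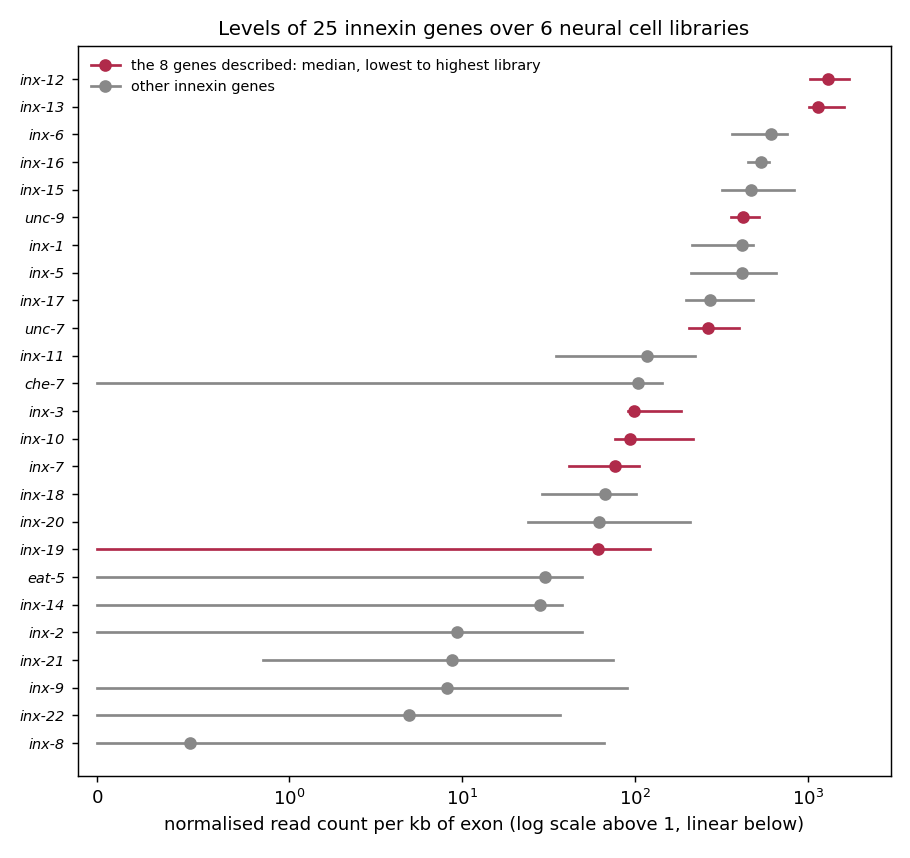
Levels of the 25 innexin genes as normalised read counts per kb of exon (log scale above 1, linear below); points are medians and lines run from the lowest to the highest of the 6 libraries. Among the 8 genes described (red), *inx-12* and *inx-13* lead at 1299 and 1144 per kb, and *inx-19* is the only one whose line reaches 0.

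Among all 25 innexins, *inx-12* and *inx-13* ranked 1 and 2 per kb, *unc-9* ranked 6, *unc-7* ranked 10, and *inx-3*, *inx-10*, *inx-7* and *inx-19* ranked 13, 14, 15 and 18. The 8 genes took 50.4% to 54.5% of the reads on innexin genes in each library. Per kb of exon, the highest of the other 17 were *inx-6* with a median of 608, *inx-16* with 539 and *inx-15*, named after its values were seen, with 466. By read count with no division by length, their means ran from 18.2 to 1194, and *inx-1* (log2 fold change 0.44), *inx-16* (-0.03), which carries calcium waves between intestinal cells, and *inx-6* (0.47), which couples pharyngeal muscle, had the most reads. Limma and edgeR called 0 of the 17, and by limma 8 lay above 0 and 9 below, with a median of -0.03. *adr-2 (-)* replicate 3 was the lowest library for 8 of the 17 and the highest for 6.

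The groups lay apart for 2 of the 17, against 13.7% of all genes. *che-7*, chosen for mention after its values were seen, had 195, 132 and 0 against 249, 305 and 259.8, a log2 fold change of 3.19 (limma, adjusted p = 0.741) that was 0.75 without *adr-2 (-)* replicate 3. With all 6 libraries *che-7* was at 1.29 with edgeR and 1.30 with DESeq2, and was called by neither. *inx-9* was lower in the dsRBD1 mutant cells and belongs to the innexins of the gonad, which join the somatic sheath to germ cells. It had 29, 29 and 36 reads in *adr-2 (-)* cells, or 26.1, 21.3 and 117 normalised counts, and none in any dsRBD1 mutant library. With a floor of 3 reads set in each dsRBD1 mutant library, the ratio of the *adr-2 (-)* mean to the floor mean was 24.4. Without *adr-2 (-)* replicate 3 this ratio was 10.5. Both ratios allow for counting error in the dsRBD1 mutant libraries only. They leave out the spread between replicates and do not bound the genotype difference. The limma interval of the *inx-9* log2 fold change was wide, from -9.55 to -1.20. The adjusted p-value of *inx-9* was 0.722 by limma, the smallest of the 25, and it was the 1 innexin of the 25 that DESeq2 called (adjusted p = 0.00806). Without *adr-2 (-)* replicate 3 DESeq2 no longer called it (adjusted p = 0.347), although its fitted log2 fold change was -7.45 against -8.65 with all libraries, while the adjusted p-value of limma was 0.141. Such fitted values against a group at 0 depend on how zeros are handled and are no bounds. In those 5 libraries DESeq2 called *inx-8* (adjusted p = 0.0232).

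The 5 gonad innexins had few reads in these cells. *inx-8* had 99, 37 and 0 reads in *adr-2 (-)* cells against 0, 1 and 1, and *inx-22* had 65, 43 and 1 against 0, 13 and 11. *inx-21* had 2, 58 and 38 against 2, 45 and 2, and *inx-14* had 66, 48 and 0 against 62, 90 and 39. Of the 5, 4 had a log2 fold change below 0, with a median of -2.24, while each of the 8 genes described here had at least 136 reads in every dsRBD1 mutant library. Summed markers of germline and embryo were also lower in dsRBD1 mutant cells, at 584 to 925 normalised counts against 1179 to 3402 in *adr-2 (-)* cells. Of these markers, 6 of 6 were detected in every library. Their part in the gonad innexin values was not tested.

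**Figure D5:**
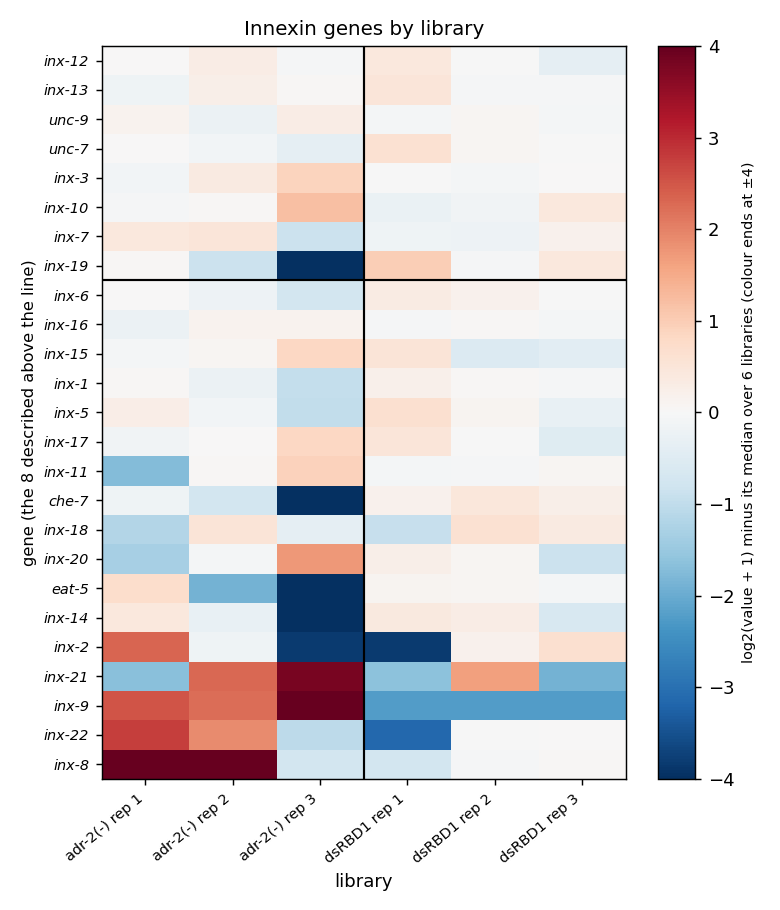
Log2(value + 1) of each innexin gene minus its own median over the 6 libraries, with the 8 genes described above the horizontal line and the genotypes split by the vertical line; colours end at ±4. Above the line only *inx-19* in *adr-2 (-)* replicate 3 is strongly coloured; below it *che-7*, *eat-5*, *inx-14* and *inx-2* are dark blue in that library, and *inx-9* is red in all 3 *adr-2 (-)* and blue in all 3 dsRBD1 mutant libraries.

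Transcripts of proteins that act with innexins gave no call either. Of 4 partners tested, 0 were called by limma, edgeR or DESeq2 and 0 had an unadjusted p-value of limma under 0.05. Their log2 fold changes ran from -0.29 for *unc-24* to 0.39 for *unc-1*, with a median of 0.21. Without *adr-2 (-)* replicate 3, *unc-24* turned to 0.22, and 4 of 4 were above 0 with a median of 0.20 and 0 called. *unc-1* encodes a stomatin-like protein that UNC-9 gap junctions need to work. Its values were 1253, 1311 and 679.8 in *adr-2 (-)* cells and 1942, 1066 and 1227 in dsRBD1 mutant cells, which overlapped (log2 fold change 0.39, SE 0.32; limma, adjusted p = 0.753; 0.09 without *adr-2 (-)* replicate 3). As for *unc-7*, *adr-2 (-)* replicate 3 was the lowest and dsRBD1 replicate 1 the highest library. *nlr-1* encodes a neurexin-like receptor of gap junction assembly. Its values were 307, 309 and 335 against 419, 294 and 396 (log2 fold change 0.21; limma, adjusted p = 0.871).

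The genes that act with *inx-19* in AWC asymmetry were mostly on the side of higher values in the dsRBD1 mutant cells, without a call. Of 8 tested, 0 were called by limma, edgeR or DESeq2, 7 had a log2 fold change above 0 (54.5% of all genes did), and the median was 0.34, with the lowest, -0.02, for the calcium channel subunit *unc-36*. The highest was *olrn-1*, with 686, 658 and 368 in *adr-2 (-)* cells and 972, 888 and 887 in dsRBD1 mutant cells (log2 fold change 0.73; limma, adjusted p = 0.741). Without *adr-2 (-)* replicate 3, the lowest library, *olrn-1* was at 0.45 (limma, adjusted p = 0.763), *unc-2* at 0.40 and the median of the 8 at 0.15, with 7 above 0 and 0 called. Of all 13705 genes tested, 6167 were above 0 in that fit, with a median of -0.06. Groups lay apart with dsRBD1 higher for 3 of the 8, against 6.8% of all genes: *olrn-1* and, named after their values were seen, the kinase gene *nsy-1* (log2 fold change 0.44) and the calcium channel gene *unc-2* (0.60). The unadjusted p-value of limma was under 0.05 for 2 of the 8, *olrn-1* and *unc-2*, against 6.36% of all genes. In the 5 libraries it was so for *olrn-1* alone, against 6.03% of all genes. With edgeR on all 6 libraries, the unadjusted p-values were 0.0534 for *olrn-1* and 0.0542 for *unc-2*, with 6.55% of all genes under 0.05. DESeq2 gave unadjusted p-values of 0.0638 and 0.0365 for the same genes. Summed glial markers also lay apart, at 1561 to 1685 in *adr-2 (-)* and 2160 to 2969 in dsRBD1 mutant cells (6 of 6 in the table; *ptr-10*, *delm-1* and *hlh-17* at 0 in some libraries). In each library 88.9% to 97.6% of this sum came from *lit-1* and *fig-1*, and the means of *ptr-10* (0.477 against 9.13) and *hlh-17* lay lower in dsRBD1 mutant cells. Summed neuronal markers overlapped, at 21243 to 23906 and 21493 to 28056. Their part in these values was not tested.

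For *unc-7* and *unc-9*, the genes with the most similar pattern were sought by the Pearson correlation of log2(value + 1) over the 6 libraries among the other 13704 genes tested. This is a description over 6 points that share their libraries and scaling. For *unc-7* the closest were *mdt-29* (0.989), *Y39E4B.6* (0.985) and *ags-3* (0.982), with 28 genes above 0.95. For *unc-9* they were *mut-14* (0.994), *C53H9.3* (0.993) and *vps-52* (0.988), with 30 genes above 0.95.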

How the data were processed

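The authors isolated neural cells from L1 animals, selected poly(A) RNA, made stranded libraries, aligned 75 bp single-end reads to the WS275 genome (ce11, which is WBcel235) with STAR 2.7.8a, kept unique alignments and counted reads per gene with featureCounts. The signal deposited for each gene and library is this count divided by 1 DESeq2 size factor per library. The deposited log2 fold changes and the deposited p-values come from the authors' own comparison of the genotypes and were not used.

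Dividing each library's values by its smallest gave whole numbers, within 0.02 reads, for 100% of them, and these are the recovered reads. Groups are the genotypes in the sample labels, with 3 biological replicates each. Limma 3.58.1 (R 4.3.3, mean-variance trend) was run on log2(value + 1). It took in 13705 genes, those whose mean reached 10, and adjusted p-values over all of them, while edgeR 4.0.16 and DESeq2 1.42.0 took the reads of the same genes. With the added 1, limma can give smaller or larger changes than the count tests for genes with zeros. For *inx-9*, without reads in the dsRBD1 mutant libraries, it gave -5.37 against -8.92 with edgeR. For *inx-19*, without reads in *adr-2 (-)* replicate 3, it gave 2.93 against 1.41. The scripts were tested on simulated data with less spread between replicates than was estimated here. That checks the code and does not show which changes could be found in these libraries. Floors of 3 reads (5.28e-05% of the reads in *adr-2 (-)* replicate 3, at most 2.52e-05% elsewhere) cover counting error only, since PCR copies are not independent. Gene positions and exon lengths come from the Ensembl annotation of WBcel235, which holds 19784 of the 19793 gene identifiers.

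The innexin genes and all gene lists were chosen with earlier results of these data known. Named are all 8 genes, the 3 other innexins with the highest mean, the 5 gonad innexins, 2 partners (*unc-1* and *nlr-1*), the highest and lowest fold change of each list, and the 3 genes most similar to *unc-7* and to *unc-9*. Of 9 AWC asymmetry genes listed, 8 were matched by name. Alternatives were a pseudocount of 0.5, no filter, at least 10 reads in every library, TMM scaling, library totals without ribosomal RNA genes, both count tests, the replicate number as a block and each library left out. The count tests without *adr-2 (-)* replicate 3 were chosen after seeing the data. Protein and promoter sequences were not used here.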

Additional observations from a re-analysis of the deposited data

How the results depend on the processing

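The 8 innexins gave 127 fitted values under 16 alternatives, of which 0 were called and 11 changed sign, each for a gene that was not called in the first place. The sign of *inx-13* turned with library totals without ribosomal RNA genes (-0.040), a scaling that moved the median of all genes from 0.09 to -0.05. Without *adr-2 (-)* replicate 3, *inx-10* was 0.014 with edgeR and 0.025 with DESeq2, and *unc-9* 0.013 with DESeq2. With each library left out in turn, limma gave log2 fold changes from -0.67 to -0.16 for *inx-3*, from -0.64 to -0.01 for *inx-10*, from -0.51 to 0.15 for *inx-7*, from -0.26 to 0.12 for *inx-12*, from -0.077 to 0.20 for *inx-13* and from -0.25 to 0.022 for *unc-9*, and 0 of the 8 were called each time. Over all genes, the count of 0 from limma became 3 with no filter, 21 with the replicate block, 0 to 11 with 1 library left out (11 without *adr-2 (-)* replicate 2), 254 with DESeq2 and 112 with DESeq2 without *adr-2 (-)* replicate 3; the cause was not tested. The libraries share only a number: deviations of libraries with the same number had correlations of -0.09, 0.04 and -0.06, so the numbers were not taken to pair them, and under the replicate block 0 of the 8 innexins were called. *inx-19* could not be tested with at least 10 reads in every library. *inx-7* and *inx-19* had the fewest reads of the 8 genes in a single library, with 24 and 0 in *adr-2 (-)* replicate 3. The cause of these low counts was not tested.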
